A study of Mus musculus with 2 samples.

Results

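Early proximal tubule cells line the first stretch of the nephron, the convoluted S1 and S2 segments that receive the glomerular filtrate. They reclaim glucose, phosphate, amino acids and small proteins through sodium-coupled carriers and endocytic receptors of the brush border, and they secrete organic anions. They depend on mitochondrial oxidation of fatty acids for energy and make glucose themselves, and after ischemia surviving cells can lose this transport program and switch on injury genes. Here such cells were followed in single-cell RNA data from injured mouse kidneys, 1577 of 9452 retained barcodes in a control library and 239 of 10026 in a library from mice that were haplodeficient for Phd3 in endothelium.

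The kidneys came from mice 14 days after ischemia and reperfusion of 1 kidney by clamping of its renal artery, and all mice received tamoxifen, in 4 injections in total. The control group was Cre-, and the haplodeficient group was Cdh5-CreERT2; Phd3f/+, that is, it carried 1 floxed allele of Phd3 (Egln3, a prolyl hydroxylase that senses oxygen) and a tamoxifen-inducible Cre driven by the promoter of the endothelial cadherin gene Cdh5. The epithelial cells described here were therefore not the stated target of the Cre. Each group was 1 library of a dissociated kidney, both in batch 1. The labels do not state whether control mice carried the floxed allele, nor how many animals a library holds. Because each group was a single library, groups could not be tested against each other, and all comparisons describe these libraries. Ranges in parentheses are exact 95% intervals (Poisson for levels, Clopper-Pearson for shares) and cover counting error alone. Fewer cells of a type in a library can reflect the kidney or the dissociation, which cannot be told apart.

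A barcode was retained with at least 500 unique molecular identifiers (UMIs, counts of single RNA molecules), at least 200 genes and at most 50% of UMIs from mitochondrial genes. It was taken as an early proximal tubule cell with at least 3 UMIs of Slc5a2 and Slc5a12 together, fewer than 3 UMIs of the late-segment genes Slc7a13 and Slc22a30 together, fewer than 3 UMIs of the injury gene Havcr1, and 0 UMIs of the leukocyte gene Ptprc. Slc5a2 encodes the glucose carrier SGLT2, and Slc5a12 encodes a sodium-coupled lactate carrier. The rule found 1577 cells among 9452 in the control library, or 16.7% (15.9 to 17.5). It found 239 cells among 10026 in the haplodeficient library, or 2.38% (2.09 to 2.70). When every barcode was first thinned to 2000 UMIs, the shares were 12.6% of 8400 and 1.75% of 8563 barcodes, so the gap between the libraries was present at equal depth. The mirror rule for late cells (at least 3 UMIs of Slc7a13 and Slc22a30, fewer than 3 of Slc5a2 and Slc5a12) gave 635 and 14 cells, and Havcr1-positive cells (at least 3 UMIs, no Ptprc) numbered 587 and 239. Of the barcodes with at least 3 UMIs of the 2 early genes, 2173 in the control library versus 413 in the haplodeficient one, the late-segment condition removed 328 and 79, the Havcr1 condition 232 and 95, and the Ptprc condition 73 and 37, with overlaps. Cells at the edge of the rule were shallow. Those with exactly 3 UMIs of the 2 genes, just inside, numbered 102 and 24 with median depths of 4410.5 and 6697 UMIs, and those with 2, just outside, numbered 137 and 35 with medians of 3486 and 4497. In the 24 haplodeficient cells just inside, Slc34a1 stood at 740.3 UMIs per 1000000 UMIs (CPM) and Umod, a thick ascending limb gene, at 3670 CPM, whereas all early cells of that library had 2263 CPM of Slc34a1.

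The libraries stood apart in more than the number of cells. The control library had a median mitochondrial share of 10.2% over all retained barcodes, the haplodeficient library one of 2.72%. In the early cells the medians were 23.5% (5th to 95th percentile 5.18% to 43.7%) and 6.66% (1.65% to 23.6%). Control early cells held 22337672 UMIs (per cell, median 12822 UMIs and 3372 genes), and haplodeficient early cells 3017758 UMIs (median 9059 UMIs and 3184 genes). No early-cell barcode was shared between the libraries, although 5 control early-cell barcodes were also retained in the other library. Free RNA was estimated at 2.39% and 3.06% of early-cell UMIs. At least 5 UMIs of Umod, Slc12a1, Slc12a3, Aqp2 and Atp6v1g3, genes of later nephron segments, were found in 110 (6.98%) and 12 (5.02%) early cells, which were deeper than the rest (medians 20987.5 and 19207.5 UMIs), and no doublets were removed for the main values.

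The early identity of the cells was checked against genes that the rule did not use. The phosphate carrier gene Slc34a1 stood at 3368 CPM (3344 to 3392) in control early cells and at 740.8 CPM in all other retained control barcodes, and at 2263 CPM (2210 to 2317) against 103 CPM in the haplodeficient library. Slc6a19, which encodes the main carrier of neutral amino acids, stood at 408 CPM (400 to 417) against 41.2 CPM in control cells and at 142 CPM (129 to 156) against 6.07 CPM in haplodeficient ones. Both markers were thus higher in early cells than in the remaining barcodes of either library, as the label says. Slc34a1 was also high in late cells (2480 and 2306 CPM), whereas Slc6a19 was at 20.2 and 24.3 CPM there. Slc7a13, a late-segment gene that the rule limited, was at 1.97 and 0.994 CPM in early cells against 513 and 372 CPM in late cells. Among the leading genes of the early cells over all other barcodes, ranked by the smaller log2 ratio of the 2 libraries, were Spp2, Slc5a2, Slc6a19, Slc34a3, Slc5a12, Gatm, Clec2h, Cyp2d26, Gldc, Gpx3, D630023F18Rik, Slc7a7, Prodh2 and Nox4. Slc34a3 is a second phosphate carrier gene, Gatm makes the creatine precursor guanidinoacetate, Gldc cleaves glycine, Prodh2 degrades hydroxyproline, and Gpx3 is the secreted glutathione peroxidase of plasma. Gatm stood at 1622 against 201 CPM in control cells and 848 against 60.5 CPM in haplodeficient ones, and Gpx3 at 14669 against 2248 CPM and 8307 against 499 CPM. Since these cells were chosen on 2 of their genes, the ranks describe the set and are no test of it.

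**Figure D1:**
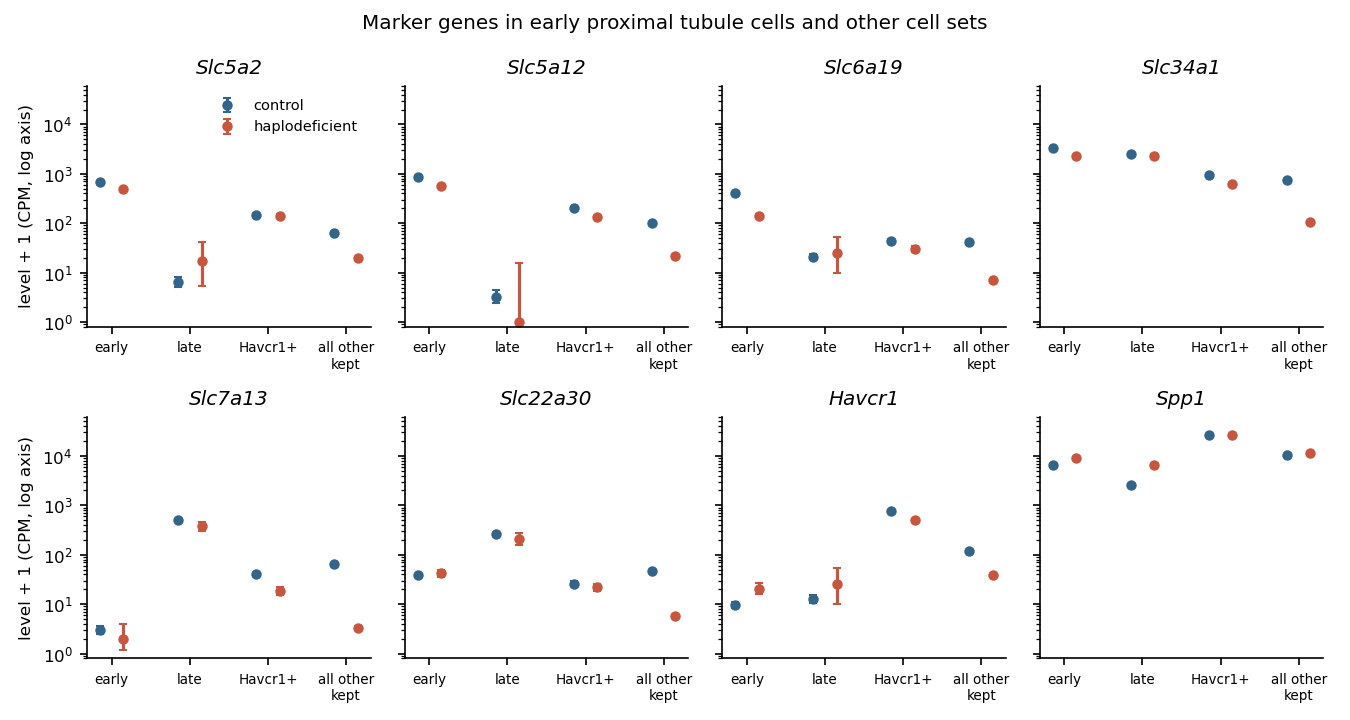
Levels of 8 genes (CPM plus 1, log axis) in early cells, late cells, Havcr1-positive cells and all other retained barcodes of the control (blue) and haplodeficient (red) library. Points are sums over cells and bars are exact Poisson 95% intervals. Slc5a2, Slc5a12 and Slc6a19 are highest in the early cells of both libraries, Slc34a1 is about as high in late cells, and Slc7a13 and Slc22a30 are highest in late cells and Havcr1 and Spp1 in Havcr1-positive cells.

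The regulatory sequence before some of these genes is shown because most transport and glucose-production genes of the lists below lay under the median of all genes. HNF1 factors, which maintain proximal tubule genes, read the half-site GTTAAT, and this word on either strand (ATTAAC when read on the printed strand) was searched in the 250 bases upstream of RefSeq gene starts on GRCm38.p6. It occurred in 6.43% of 32851 such windows. Of the 12 early-segment reference genes 10 had windows in the table (Slc5a2 and Slc5a12 did not), and 4 of their 15 windows held the word. It was held by 3 of 12 windows of glucose-production genes, 6 of 24 of amino acid and peptide transport genes, 2 of 22 of organic ion transport genes and 0 of 20 of immediate early genes. A match describes letters only and is no evidence of binding. Windows with a match are printed 5′ to 3′ on the strand of the gene with the matched letters in capitals: for Slc34a1 chr13:55399398-55399647 (plus strand), for Slc22a8 chr19:8592932-8593181 (plus), for the upstream start of Cltrn chrX:164089937-164090186 (plus), and for Pck1 chr2:173152823-173153072 (plus).
Slc34a1: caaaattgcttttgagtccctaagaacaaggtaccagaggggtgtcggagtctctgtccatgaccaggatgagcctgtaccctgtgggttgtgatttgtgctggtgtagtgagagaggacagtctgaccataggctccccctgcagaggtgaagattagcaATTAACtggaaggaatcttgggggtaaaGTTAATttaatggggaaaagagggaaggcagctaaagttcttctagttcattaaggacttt
Slc22a8: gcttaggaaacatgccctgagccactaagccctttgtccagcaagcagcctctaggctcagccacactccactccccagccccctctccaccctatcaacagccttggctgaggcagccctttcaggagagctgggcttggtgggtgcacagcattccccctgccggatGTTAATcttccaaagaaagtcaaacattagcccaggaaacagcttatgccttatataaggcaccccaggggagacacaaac
Cltrn: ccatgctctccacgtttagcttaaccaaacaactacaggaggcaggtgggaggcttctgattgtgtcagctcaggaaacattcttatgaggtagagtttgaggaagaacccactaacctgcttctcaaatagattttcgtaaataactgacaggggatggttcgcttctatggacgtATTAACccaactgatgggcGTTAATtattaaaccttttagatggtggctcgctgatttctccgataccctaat
Pck1: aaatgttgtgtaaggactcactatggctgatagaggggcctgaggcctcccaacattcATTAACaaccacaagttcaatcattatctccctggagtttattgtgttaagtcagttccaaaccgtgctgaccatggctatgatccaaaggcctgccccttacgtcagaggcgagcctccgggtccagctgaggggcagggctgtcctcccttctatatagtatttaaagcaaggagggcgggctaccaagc
Slc34a1 and Cltrn hold 2 matches each, in opposite orientations. Slc22a8 encodes the organic anion transporter OAT3, Cltrn (collectrin) carries Slc6a19 to the membrane, and Pck1 encodes the rate-limiting enzyme of glucose production. Slc6a19 had no match in its window.

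The libraries were compared over summed UMIs of the early cells, as log2 of (haplodeficient CPM plus 5) over (control CPM plus 5). Genes averaging 50 CPM or more over both libraries, with 30 or more UMIs, were eligible. A gene under 50 CPM in 1 library could therefore be eligible through its level in the other library alone. The size rule asked for a log2 ratio of 1 or more in either direction and for Poisson intervals that did not overlap, and 148 of 3163 eligible genes (4.68%) passed it. Of these, 106 (3.35% of the genes) were higher and 42 (1.33%) lower in the haplodeficient library, and 11 of the 42 were mitochondrially encoded. The median over all 3163 genes was 0.22, and mitochondrial RNA took 22.4% of control and 8.26% of haplodeficient early-cell UMIs. With mitochondrial genes left out of the totals the median was -0.0090, and 160 of 3646 genes (4.39%) passed, 75 higher (2.06%) and 85 lower (2.33%). List medians are therefore given relative to the median of all genes. Without the cells that held UMIs of later segments 171 of 3087 genes passed (5.54%), 126 higher (4.08%) and 45 lower (1.46%), and 97 of the 106 higher and 42 of the 42 lower genes were among them. For comparison, Havcr1-positive cells of the same libraries gave 43 calls among 3564 genes (1.21%), 14 higher and 29 lower.

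**Figure D2:**
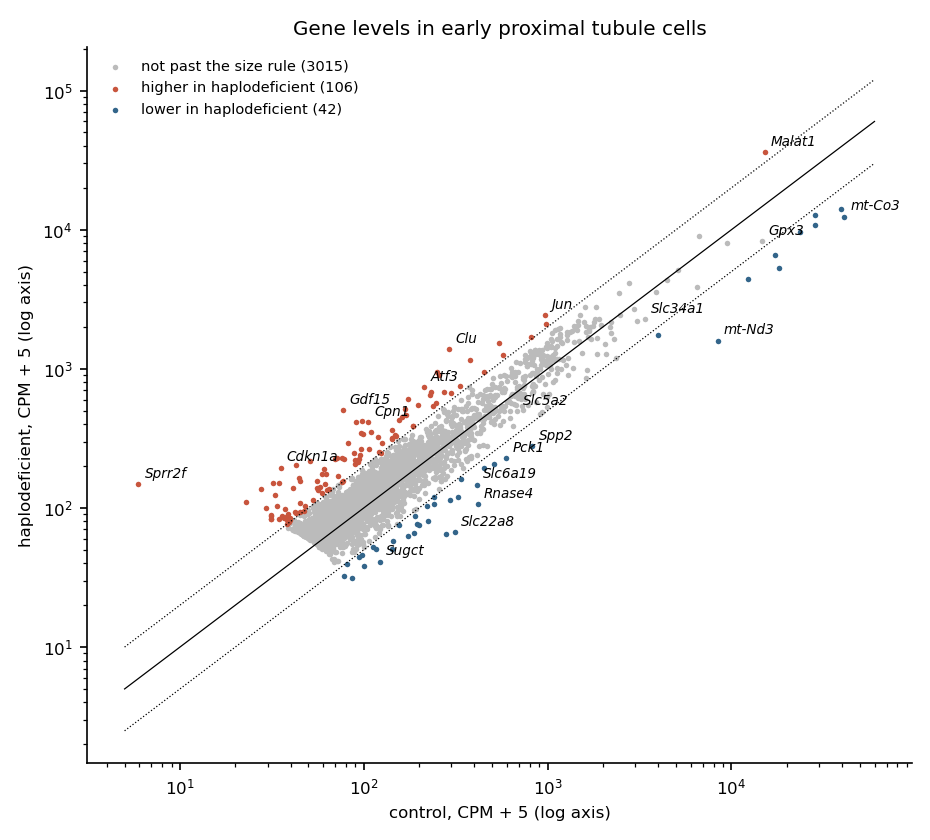
Level of each of 3163 eligible genes in early cells of the control (x axis) and haplodeficient (y axis) library, as CPM plus 5 on log axes. The solid line marks equal levels and the dotted lines a log2 ratio of 1 in either direction. The 106 genes in red and 42 in blue passed the size rule, with Sprr2f, Gdf15 and Cdkn1a far above the line and mt-Nd3, Slc22a8 and Rnase4 far below it.

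The 10 highest log2 ratios among the genes that passed were those of Sprr2f, Gdf15, Cdkn1a, Mid1ip1, Cldn3, Nupr1, Clu, Car15, Rpl29 and Crip1, and the 10 lowest those of mt-Nd3, Slc22a8, Dnase1, Rnase4, mt-Nd2, mt-Co3, Spp2, Sugct, Ces1f and Dpep1. Of the highest, Sprr2f, Cdkn1a, Mid1ip1, Cldn3, Nupr1, Car15 and Crip1 were under 50 CPM in control cells and eligible only through their haplodeficient level. Of the lowest, Sugct and Dpep1 were under 50 CPM in haplodeficient cells and eligible only through their control level. Nupr1, a stress-induced chromatin protein gene, was at 37.8 CPM in control and 199.8 CPM in haplodeficient early cells (2.26), the tight junction gene Cldn3 at 17.9 and 105 CPM (2.27), and Mid1ip1, a regulator of fatty acid synthesis, at 22.5 and 133 CPM (2.33). Dnase1, a secreted nuclease of the kidney, was at 275 and 60.3 CPM (-2.10), the carboxylesterase gene Ces1f at 182 and 60.6 CPM (-1.51), and Spp2 at 819 and 272 CPM (-1.57).

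Most listed genes of reabsorption and secretion lay below the all-gene median in the haplodeficient early cells, and few of them passed the size rule. All 10 eligible genes of the early-segment reference list lay below the all-gene median, the list median was -0.84, and 2 of the 10 passed the size rule (1.33% of all genes did). Slc22a8 was at 308 CPM (301 to 316) in control cells and 62.3 CPM (53.7 to 71.9) in haplodeficient ones, a log2 ratio of -2.22. Slc6a19 followed at -1.49, from the CPM given above. The rule genes Slc5a2, at 677 and 492 CPM, and Slc5a12, at 859.5 and 573 CPM, chose the cells and are given as values only. Slc34a1 differed by -0.57 and Slc4a4, the basolateral bicarbonate carrier, by -0.43 (2036 and 1512 CPM), less than the rule requires. Among 12 eligible genes of amino acid and peptide transport 11 lay below the all-gene median, with a list median of -0.64 and 1 gene past the rule. Among 15 genes of organic ion and urate transport 13 lay below, with a list median of -0.68 and 2 past the rule, Slc22a8 and Slc22a18 (237 and 102 CPM, -1.17). The opposite end of that list held Abcc2, an export pump of the brush border, at 269 and 484 CPM (0.84), and the sulfate carrier Slc13a1 at 1700 and 1993 CPM (0.23). The endocytosis list (13 genes, median -0.34) had no call, with the receptor genes Lrp2 (megalin) at 1117 and 1009 CPM and Cubn (cubilin) at 257 and 150.1 CPM. None of 6 phosphate transport genes (all below the all-gene median) and none of 10 acid-base and water transport genes (9 below) passed. Brush border genes had a median of -0.093 over 9 genes and 1 call, the dipeptidase Dpep1, at 137 and 45.4 CPM (-1.49).

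Shares of cells were compared at equal depth. After thinning to 2000 UMIs, a Slc6a19 UMI was found in 51.1% (48.6 to 53.7) of 1526 control early cells, compared with 27.8% (22.1 to 34.0) of 234 haplodeficient ones, against 84.9% and 58.6% unthinned. In C1q-expressing leukocytes, which should lack the gene, the thinned shares were 2.11% and 0.0759%, at median depths of 6160 and 7557.5 UMIs. For Slc34a1 the thinned shares in early cells were 97.2% and 92.3%, against 10.6% and 1.37% in those leukocytes. The phosphate carrier was found in most early cells of both libraries, and the amino acid carrier in a smaller share of the haplodeficient ones.

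Most listed metabolic genes also lay below the all-gene median, again with few past the size rule. All 9 eligible genes of gluconeogenesis and fructose handling lay below the all-gene median (list median -0.71), and 2 passed the size rule (1.33% of all genes passed as lower). These were Pck1, at 588 CPM (578 to 599) in the control library versus 222 CPM (205 to 239) in the haplodeficient one (-1.39), and the pyruvate carboxylase gene Pcx, at 237 and 114 CPM (-1.02). Of 23 eligible genes of fatty acid oxidation and PPAR alpha targets 22 lay below the median of all genes (list median -0.50). The 2 that passed the rule were the mitochondrial thiolase Acaa2 (320 and 116 CPM, -1.43) and the peroxisomal enzyme Ehhadh (151 and 69.9 CPM, -1.06), and Ppara itself, counted among the transcription factors, stood at 107 and 47.4 CPM (-1.10). Pdk4, a PPAR target that restrains glucose oxidation, was at 62.4 and 126 CPM (0.96). Amino acid metabolism had 16 of 17 genes below (list median -0.63) and 1 call, the lysine-degrading enzyme Aass (189.9 and 71.6 CPM, -1.35). The tricarboxylic acid cycle had 16 of 17 below (median -0.46) and no call. The 49 nuclear-encoded subunits of oxidative phosphorylation differed least of these lists, with 42 below, a median of -0.21 and no call, and their summed level was 37493 and 37768 CPM.

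The 13 mitochondrially encoded messages were the lowest list, at a median of -1.61 relative to all genes. The size rule was passed by 11 of them (1.33% of all genes passed as lower). The largest difference was in mt-Nd3, a complex I subunit, at 8397 and 1591 CPM (-2.40), followed by mt-Nd2 at 18036 and 5317 CPM (-1.76) and mt-Co3 at 40949.8 and 12397 CPM (-1.72). mt-Nd4l, at 2949 and 2691 CPM (-0.13), and mt-Atp8, at 773 and 543 CPM (-0.51), did not pass. Subunits encoded in the nucleus and in mitochondria thus differed by unequal amounts. Glutathione and NRF2 target genes had a median of -0.20 over 10 genes and 1 call, the glutathione transferase Gsta2, at 291 and 108 CPM (-1.38).

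Immediate early and injury lists held several higher calls each, and other stress lists 1 or none. Of 19 eligible immediate early genes, the fast response to growth factors and stress, 10 passed the size rule as higher (3.35% of all genes did), with a list median of 0.87. Atf3, a stress transcription factor, was at 208 CPM (202 to 214) in the control library versus 734 CPM (704 to 766) in the haplodeficient one (1.80). Jun was at 957 and 2439 CPM (1.34), Fos at 973 and 2082 CPM (1.09), and Klf4 at 71.4 and 222 CPM (1.57). Socs3, at 99.4 and 94.4 CPM, and Zfp36, at 310.3 and 311 CPM, were nearly level in CPM. Of 24 eligible genes of tubular injury and repair 14 were higher past the rule and 1, the fibrinogen chain gene Fgg (185 and 81.9 CPM), lower, with a list median of 0.95. The keratin genes Krt8 (228 and 674 CPM, 1.54) and Krt18 (45.9 and 211 CPM, 2.08) and the actin-binding genes Tmsb4x (251 and 890.4 CPM, 1.81) and Tmsb10 (105 and 348 CPM, 1.68) were among the 14. Gdf15, a stress-induced hormone of the TGF-beta family, was at 72.0 CPM (68.6 to 75.6) and 502 CPM (477 to 528), a log2 ratio of 2.72, and Cdkn1a, the cell cycle inhibitor p21, at 30.3 and 189.5 CPM (2.46). The heat shock list (7 genes, median 0.36) had 1 call, Hspb1 (39.7 and 150.4 CPM), and the endoplasmic reticulum chaperone list (12 genes, median 0.11) had none. Gdf15 was the 1 call among 4 eligible genes of the integrated stress response, of which 2 lay above and 2 below the all-gene median, and Cdkn1a the 1 call among 3 eligible p53 targets. Of the genes named here, Krt18, Hspb1 and Cdkn1a were eligible only through their haplodeficient level. Markers of other cell types differed beside these lists, in both directions. The 6 thick ascending limb markers, none at 0, summed to 855 CPM in control and 1304 CPM in haplodeficient early cells, the 8 stromal markers to 16.6 CPM (0 at 0) and 81.2 CPM (1 at 0), and the 6 neutrophil markers to 2.46 and 20.5 CPM (1 at 0 in each). Lower sums in haplodeficient cells were those of 6 distal convoluted tubule markers (184 and 139 CPM, 0 and 1 at 0) and 6 principal cell markers (132 and 110 CPM, none at 0). The 8 endothelial markers were also lower (42.5 and 26.8 CPM, none at 0). The 6 intercalated cell markers summed to 48.9 and 56.0 CPM (0 and 2 at 0), and the 6 podocyte markers to 21.1 and 33.8 CPM (0 and 1 at 0). The part of these cell types in the stress and injury values was not tested.

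Some of the largest ratios came from very few cells. Sprr2f, a cornified envelope gene, had 21 UMIs in the control library versus 433 in the haplodeficient one (0.940 and 143 CPM, log2 ratio 4.64), yet only 1.01% and 1.67% of early cells held a UMI of it. Leaving out the 2% of cells richest in Sprr2f therefore removes all of its UMIs, so no ratio could be measured without them. Clu, an injury-induced chaperone, was at 287 and 1378 CPM (2.24) with 88.7% of its haplodeficient UMIs in the richest 2% of cells, and the ratio without those cells was 1.00. Car15, a carbonic anhydrase gene, had a log2 ratio of 2.24 over all cells and -0.095 without the richest cells. Without their own richest 2% of cells, Gdf15 stood at 2.87, Krt8 at 1.51 and Jun at 1.38, all past 1 still. After thinning, a Gdf15 UMI was found in 9.90% (8.44 to 11.5) of control early cells, compared with 34.2% (28.1 to 40.7) of haplodeficient ones, against 3.96% and 7.74% of C1q-expressing leukocytes, and 33.9% and 55.6% of early cells unthinned.

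Antigen presentation and interferon genes were the other higher groups. All 10 eligible antigen presentation genes lay above the all-gene median (list median 1.08) and 6 passed the size rule. Of all genes, 3.35% passed as higher. They included the class II genes H2-Eb1 (76.6 and 286 CPM, 1.84), H2-Aa (65.1 and 219 CPM, 1.68) and Cd74 (375 and 1154 CPM, 1.61), which load peptides for T helper cells, and the class I gene H2-D1 (241 and 559 CPM, 1.20). B2m, the class I light chain, was at 481 and 633 CPM (0.39). Of 6 eligible interferon-stimulated genes 3 passed (list median 0.83), among them Bst2 at 28.6 and 99.1 CPM (1.63). In that list 23 of the 29 genes were too low to be compared. Of the genes past the rule in these lists, some were eligible only through their haplodeficient level. These were Bst2, Psmb8 (26.2 and 81.8 CPM), Psme2 (48.1 and 109 CPM) and H2-DMa (26.4 and 78.2 CPM). With no minimum level, the list medians were lower, at 0.39 for interferon-stimulated and 0.70 for antigen presentation genes. The 11 macrophage and monocyte markers, of which none was at 0 in either library, summed to 114 CPM in control and 309.8 CPM in haplodeficient early cells, against 2594 and 5915 CPM in all other retained barcodes. In free RNA they summed to 1473 and 7072 CPM. With the estimated free RNA subtracted, the log2 ratio was 1.83 for H2-Eb1, 1.68 for H2-Aa and 1.61 for Cd74. The share that attached leukocyte fragments have in the class II values was not tested.

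Oxygen-sensing genes were low in these cells. Egln3, the gene floxed in the endothelium, had 43 UMIs in control and 3 in haplodeficient early cells, or 1.93 CPM (1.39 to 2.59) and 0.994 CPM (0.205 to 2.91), a CPM ratio of 0.516 (0.102 to 1.61) that included 1. Egln1 was at 38.5 and 40.1 CPM (ratio 1.04, 0.854 to 1.26), Egln2 at 33.4 and 49.4 CPM (1.48, 1.23 to 1.77), Hif1a at 59.3 and 65.3 CPM (1.10, 0.943 to 1.28) and Epas1 at 18.8 and 11.6 CPM (0.615, 0.423 to 0.870). The 6 eligible HIF target genes had a median of -0.30 and no call, and 8 glycolysis genes had a median of -0.16 and no call.

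The levels of several of these gene lists differed with the mitochondrial share of a cell inside each library. Early cells were divided at 5%, 10% and 15% mitochondrial UMIs, which put 72, 130, 180 and 1195 control cells and 83, 80, 33 and 43 haplodeficient cells in the 4 ranges up to 50%. Levels here are UMIs per 1000000 non-mitochondrial UMIs, so that the share itself did not enter the scale. In the control Slc34a1 was at 1464, 2300, 3513 and 5001 from the lowest to the highest range, and in the haplodeficient library at 1623, 2512, 3176 and 4249. For Slc34a1 the libraries differed less within a range than the lowest and highest ranges of either library did. Gatm took 639, 782, 1533 and 2495 in control cells and 532.5, 838, 1420 and 1887 in haplodeficient ones. Stress genes ran the other way. Atf3 was at 764.5, 708, 406 and 142 in control cells and 1330, 693, 217 and 89.6 in haplodeficient ones, and Krt8 at 755, 558, 364 and 212 for the control and 1091, 657, 377 and 228.5 for the haplodeficient library. Cells of few mitochondrial UMIs were thus low in Slc34a1 and Gatm and high in Atf3 and Krt8 in both libraries, and the control library had 4.57% of its early cells in the lowest range where the haplodeficient library had 34.7%.

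The same comparison was counted over all genes, between cells of at most 10% and cells above 15% mitochondrial UMIs. In the control 203 of 3711 genes (5.47%) were higher and 142 (3.83%) lower at the low share, and in the haplodeficient library 242 of 3532 (6.85%) and 120 (3.40%). Of 3321 genes eligible in both, 101 were higher and 71 lower in both libraries, that is, 101 of the 169 control and 233 haplodeficient higher genes, and 71 of the 125 and 111 lower ones. The libraries share no cells, and cells of a library are not replicates. Of 19 immediate early genes 13 were higher at the low share in the control library versus 16 in the haplodeficient one, and of 24 injury genes 18 and 14. Of 10 early-segment reference genes 8 and 6 were lower at the low share. The 17 amino acid metabolism genes gave 8 lower in each library, and the 15 organic ion transport genes 8 and 7. Gluconeogenesis had 5 of 9 genes lower at the low share among control cells, versus 2 among haplodeficient ones. Amino acid and peptide transport had 5 versus 3 of 12, and brush border genes 2 versus 3 of 10. Phosphate transport had 2 of 6 in each library. Some other lists had few or no such genes. Of 49 nuclear-encoded oxidative phosphorylation genes 1 among control cells and 0 among haplodeficient ones were lower at the low share, of 17 tricarboxylic acid cycle genes 1 and 1, of 13 endocytosis genes 0 and 0, and of 24 fatty acid oxidation genes 4 and 3, with 1 higher in each. Of 9 antigen presentation genes 6 were higher at the low share among control cells and 0 among haplodeficient ones. Krt18 (199.6 against 27.2 in the control, 297 against 30.9 in the haplodeficient library) and Anxa2 (268 against 27.5, and 257 against 18.5) were among the most enriched at the low share, and Dpep1 (37.1 against 219, and 28.2 against 139) and Slc22a8 (100.2 against 501, and 41.8 against 154) among the most depleted.

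**Figure D3:**
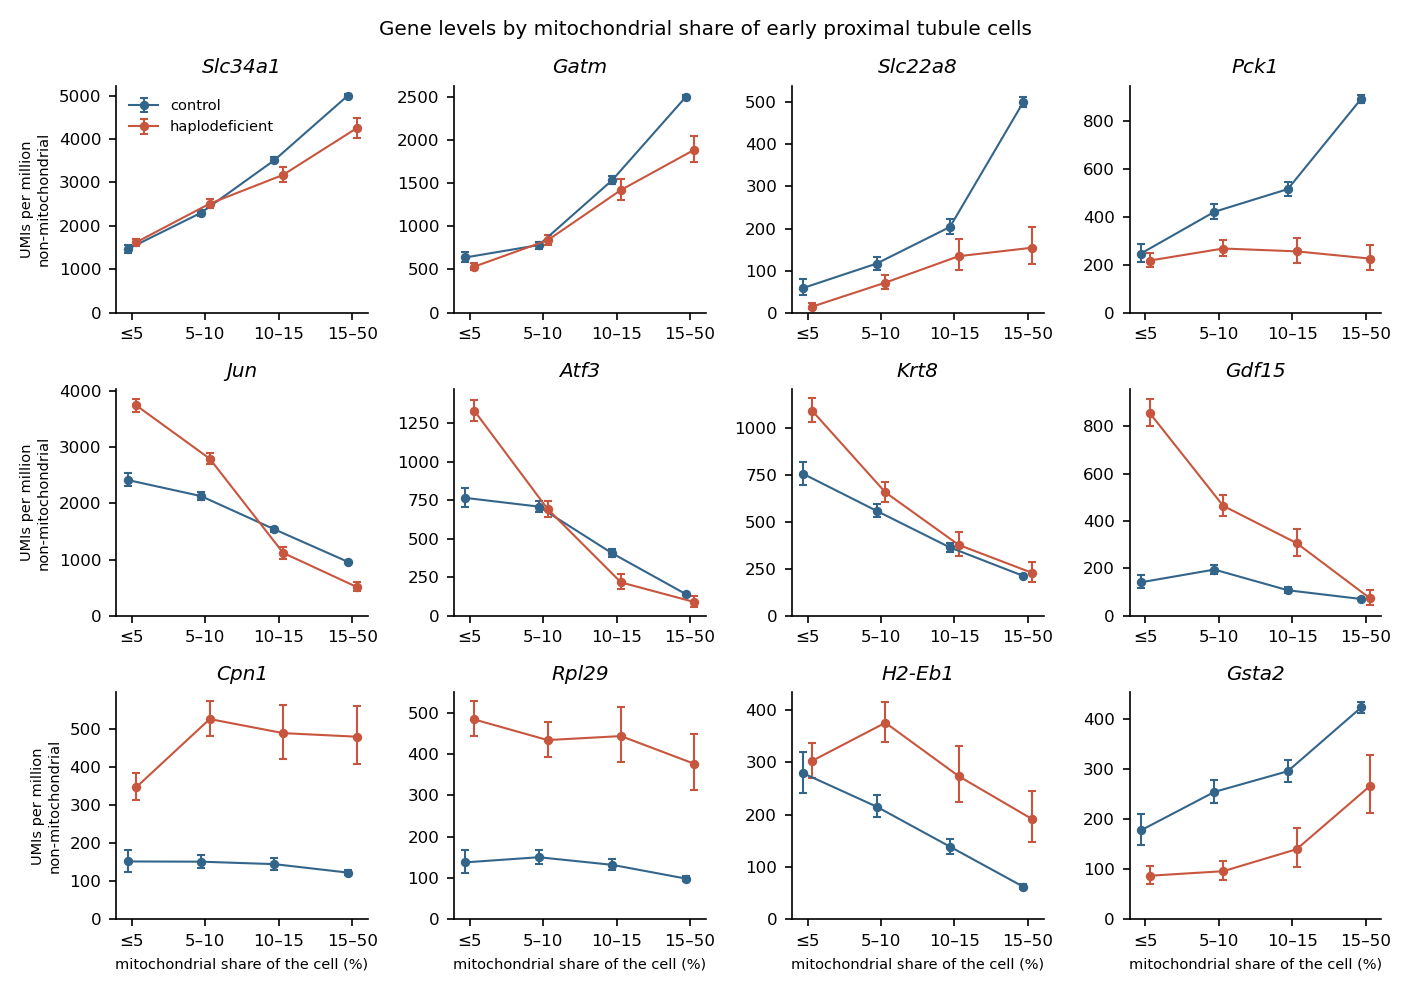
Levels of 12 genes in early cells grouped by their mitochondrial share (x axis, percent of UMIs), in UMIs per 1000000 non-mitochondrial UMIs, for the control (blue) and haplodeficient (red) library, with exact Poisson 95% intervals. Slc34a1 and Gatm climb and Jun, Atf3 and Krt8 decline with the share in both libraries, whereas Cpn1 and Rpl29 stay apart between the libraries at every share.

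When the libraries were compared among cells of 5% to 15% mitochondrial share only, a comparison chosen after the data were seen, fewer genes passed. It held 310 control and 113 haplodeficient early cells with median depths of 12810 and 11626 UMIs, and their median shares of 10.8% and 7.63% still differed. Of 3421 genes 27 (0.789%) passed the size rule, 11 higher (0.322%) and 16 lower (0.468%). Of the 148 genes called over all early cells, 114 had the same sign and 11 passed again in the same direction, 7 higher and 4 lower. Most list medians lay nearer to the all-gene median. That of the early-segment reference was -0.19, of gluconeogenesis -0.072, of organic ion transport -0.12 and of fatty acid oxidation -0.084. Immediate early genes had a median of -0.049 and injury genes one of -0.31, so the higher levels of these lists over all early cells were not seen at this range. Cdkn1a stood at -0.0048, Clu at -0.41 and Nupr1 at -0.66 there, and Jun at 0.42, Krt8 at 0.41 and Atf3 at 0.11. The cells of at most 5%, which this range leaves out, differed in summed levels of these genes, with intervals of counting error apart. Per 1000000 non-mitochondrial UMIs, Cdkn1a was at 91.3 in control and 424 in haplodeficient cells, and Nupr1 at 133.5 and 481. Clu was at 398 and 3057, but most of its haplodeficient UMIs came from few cells, as given above. Over all early cells after thinning, the shares holding Clu were 10.9% for the control library versus 12.8% for the other, with overlapping intervals. For Cdkn1a these shares were 3.01% versus 11.5%, with intervals apart. Antigen presentation genes had a median of 0.49 and interferon-stimulated genes one of 0.32, and heat shock genes one of 0.26. Endocytosis (0.023) and nuclear-encoded oxidative phosphorylation (0.19) had the opposite sign to that over all early cells. The mitochondrial genome list was at -0.26, with mt-Nd3 still at -1.17 and mt-Nd4l at 1.21.

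**Figure D4:**
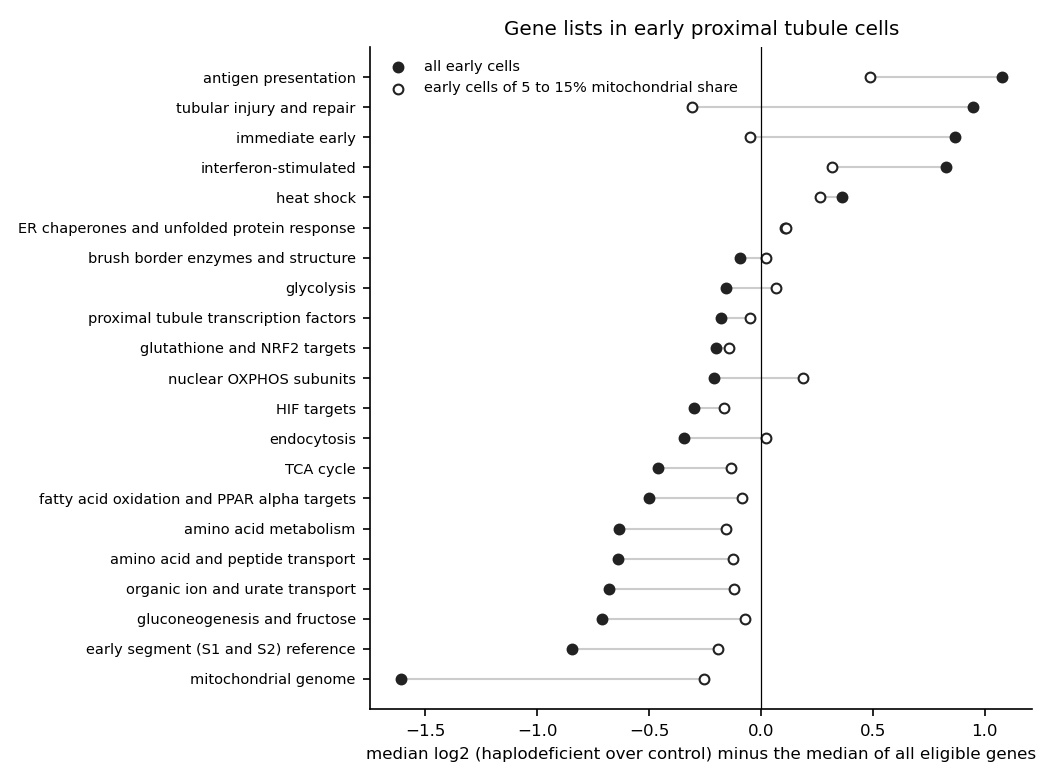
Median log2 ratio (haplodeficient over control) of each of 21 gene lists in early cells, minus the median of all eligible genes. Filled points are all 1577 and 239 early cells, and open points the 310 and 113 cells of 5% to 15% mitochondrial share. The metabolic and transport lists lie at the left and the stress lists at the right over all cells, and most open points lie nearer to 0.

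The 11 genes that passed at both were Gdf15, Rpl29, Cpn1, H2-Eb1, H2-Aa, Mid1ip1 and Ugt2b37 on the higher side and mt-Nd3, Sugct, Gsta2 and Rnase4 on the lower side. Cpn1, the catalytic subunit of carboxypeptidase N, was at 131 and 472 CPM in the matched cells (1.81). It was higher at each of the 4 mitochondrial shares, at 151, 150.6, 144 and 122 in the 4 control ranges and 346, 525, 488 and 479 in the haplodeficient library, with no overlap of intervals. Cpn1 was also higher in the late cells (34.6 and 166 CPM) and in Havcr1-positive cells (106 and 230.0 CPM), but level over all barcodes other than early cells (28.0 and 28.1 CPM). Rpl29, a ribosomal protein gene, was at 85.7 and 411 CPM in early cells, at 126 and 486 CPM in Havcr1-positive cells, at 175 and 606 CPM in C1q-expressing leukocytes and at 84.7 and 484 CPM in free RNA, so the difference was also seen outside the tubule. Near-identical copies of ribosomal protein genes can divide reads, which makes its level uncertain. Sugct, a mitochondrial glutarate CoA-transferase, was lower in early cells (117 and 36.1 CPM), in late cells (306.5 and 117 CPM), in Havcr1-positive cells (82.0 and 20.7 CPM) and in free RNA (59.6 and 7.09 CPM). Rnase4, a secreted ribonuclease, was at 411 and 101 CPM in early cells and at 48.9 and 42.0 CPM in Havcr1-positive cells, and in late cells it had the opposite direction, at 3.32 and 64.7 CPM (16 UMIs in the 14 haplodeficient cells). Gsta2 was also higher in the 14 late cells of the haplodeficient library, at 59.4 and 162 CPM. It was lower in Havcr1-positive cells (193 and 64.6 CPM), in all barcodes other than early cells (59.7 and 8.28 CPM) and in free RNA (121 and 9.64 CPM). For mt-Nd3 the level was lower in late cells (7771 and 2916 CPM), Havcr1-positive cells (3184 and 1108 CPM), C1q-expressing leukocytes (2005 and 590 CPM) and free RNA (7391 and 1851 CPM).

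Class II genes were graded with the mitochondrial share among control cells, and the gradients of the libraries were not tested against each other. H2-Eb1 was at 279, 215, 139 and 61.9 in the 4 control ranges and at 303, 376, 274 and 191.5 in the haplodeficient ones, so the intervals overlapped in the lowest range and parted above it. Cd74 was at 1333, 888, 684 and 329.8 in the control ranges and at 1259, 1367, 1312 and 858.5 in the haplodeficient ones. Gdf15 was at 142, 195.5, 108 and 71.2 in control cells and at 856, 465, 307 and 74.1 in haplodeficient ones, with overlapping intervals only above 15%. Pck1 was at 247, 421, 515 and 892 in control cells and stayed at 217, 267.5, 256 and 225 in haplodeficient ones. This difference between the libraries in the gradient of Pck1 was not tested.

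Early cells held less RNA of injury genes than Havcr1-positive cells of the same library did for Spp1 and Vcam1. In the control, Spp1 (osteopontin) was at 6638 CPM in early and 26005.5 CPM in Havcr1-positive cells, and in the haplodeficient library at 8990.1 and 25999.6 CPM. Vcam1, a marker of failed repair, was at 88.5 and 739 CPM in the control library versus 161 and 807 CPM in the haplodeficient one. For Krt8 the levels were 228 in early and 503 CPM in Havcr1-positive cells of the control, and 674 and 661 CPM in the haplodeficient library, where the levels were close. Jun stood at 957 and 1614 CPM in the control library and at 2439 and 1558 CPM in the haplodeficient one. The log2 ratios between libraries of these genes in Havcr1-positive cells were 0.39 for Krt8 and -0.051 for Jun, against 1.54 and 1.34 in early cells, and these 2 sets were not tested against each other. Slc22a8 (36.3 and 9.71 CPM, -1.49) and Pck1 (194 and 60.6 CPM, -1.60) were lower in the haplodeficient library in Havcr1-positive cells as well.

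Among the early cells themselves, 1522 control and 225 haplodeficient cells held Slc5a2, and 55 and 14 passed by Slc5a12 alone. The cells without Slc5a2 had lower mitochondrial shares (medians 15.6% and 4.05%, against 23.7% and 6.76%), and in the control they were shallower (6968 against 13086 UMIs). Apart from the rule genes, the 5 highest ratios of Slc5a2-positive over Slc5a2-negative cells that held in both libraries were those of Fabp3, Spp2, Klk1, Cyp2d26 and S100g, and the 5 lowest those of Crip1, Pdgfd, Dcdc2a, Anxa2 and Tspan8. Fabp3, a fatty acid binding protein gene, was at 248 and 59.0 CPM in control and 331 and 67.0 CPM in haplodeficient Slc5a2-positive and Slc5a2-negative cells. Cyp4b1, which is higher in the late segment, was lower in Slc5a2-positive cells, at 494.5 against 1039.6 CPM in control cells and 179.5 against 649.7 CPM in haplodeficient ones. The late-segment reference list, with 4 eligible genes, was not uniform in this. In control and haplodeficient cells the log2 ratios were -0.57 and -0.14 for Slc27a2, -0.74 and 0.40 for Acy3, and 0.042 and 0.81 for Slc1a1. Among these, intervals were apart only for Slc27a2 and Acy3 in control cells. In all, 37 genes passed the size rule in both libraries in the same direction, of 2819 eligible. Counted by library, 111 genes passed for control cells versus 191 for haplodeficient ones, where the Slc5a2-negative side held only 14 cells. A second split, at the pooled median of the Slc5a2 share of Slc5a2 and Slc5a12 UMIs (45.5%) and chosen after the data were seen, gave 2 and 10 genes past the rule and 0 in both, of 2762 eligible.

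Kap, an androgen-driven gene of the late segment, was abundant in the free RNA of the control library (11104.9 CPM, against 547 CPM in the haplodeficient library). A Kap UMI was found in 82.8% of control and 19.2% of haplodeficient early cells, and after thinning in 41.1% (38.6 to 43.6) and 14.1% (9.91 to 19.2). In C1q-expressing leukocytes the thinned shares were 37.4% (33.9 to 40.9) and 0.986% (0.526 to 1.68). The control share was thus near that of cells that should lack the gene. A share does not show the level per cell. Kap UMIs per 10000 UMIs of a cell had a median of 1.56 and a 95th percentile of 183 in control early cells. In haplodeficient early cells the median was 0 and the 95th percentile 84.8. Summed levels of Kap were 2361 and 1189 CPM in early cells against 55698 and 56166 CPM in late cells, that is, at close levels in the late cells of both libraries.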

How the data were processed

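Single-cell RNA was captured from dissociated kidneys with the 10x 3′ v3.1 chemistry, per the labels' protocols. The deposited values are raw UMI counts per gene and barcode, made with Cell Ranger 4 per the file headers and on mm10 per the submitters' processing notes; the annotation and the read settings are not given in the sources used here. The count matrices hold all barcodes (1342632 in the control library versus 1430043 in the haplodeficient one, with 134190236 and 114668145 UMIs), so cells were selected here. A hashing library that the labels mention was not used here.

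Counts were summed over the early cells of each library, scaled to CPM and compared as log2 ratios with a pseudocount of 5 CPM. With 1 library per group no p-value was computed. Poisson and Clopper-Pearson intervals at the 95% level cover counting error alone. The free RNA profile came from barcodes holding 1 to 100 UMIs. Doublets were scored with Scrublet in scanpy 1.11.5 (0.8% per 1000 barcodes) and removed only as an alternative; 126 control and 28 haplodeficient early cells were among them. Python 3.11.15, numpy 2.4.6, scipy 1.17.1 and matplotlib 3.10.9 were used, and the calculations were tested on simulated counts.

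The cell rule, members and gene lists were chosen with earlier results of these data known. The text names the rule and marker genes, the 10 highest and 10 lowest genes past the size rule, the 2 highest and 2 lowest of a list and those past the rule, the genes of oxygen sensing, the 15 leading identity genes (1 of them is not reported here) and the 5 highest and 5 lowest of the Slc5a2 split; further genes, such as those shown by mitochondrial share and those of other cell sets, were picked after their values were seen. Ddit3, whose symbol belongs to 2 gene identifiers, was left out. Promoter windows came from RefSeq on GRCm38.p6. Alternatives concerned the cell filters, the rule, thinning, doublets, cell weights, scaling, the pseudocount, the minimum level and free RNA.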

Additional observations from a re-analysis of the deposited data

How the results depend on the processing

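Of the shares, counts and list medians recomputed under other filters, scalings and weights, 200 stayed within their counting interval or within 1.5 times the main count, 81 moved beyond it and 5 changed sign. Of those under alternatives chosen after seeing the data (the 5% to 15% range, cells with UMIs of later segments, and the richest cells of a gene), 23 stayed, 17 moved and 6 changed sign. The division of cells by mitochondrial share was also chosen after seeing the data. The changed values follow, and the cause was not tested. With a mitochondrial limit of 25%, the control share of early cells was 11.4%, 54 genes were higher and list medians were -0.40 (organic ion transport), -0.20 (endocytosis), 0.030 (brush border), -0.59 (gluconeogenesis), -0.46 (amino acid metabolism), -0.078 (nuclear OXPHOS), -1.14 (mitochondrial genome), 0.59 (immediate early), 0.59 (injury), 0.65 (interferon), 0.88 (antigen presentation), -0.63 (early reference). With at least 6 UMIs of Slc5a2 and Slc5a12, the control share of early cells was 14.0%, the haplodeficient share of early cells was 1.69% and list medians were -0.48 (amino acid transport), -0.20 (endocytosis), -0.013 (brush border), 0.027 (transcription factors), -0.64 (gluconeogenesis), -0.14 (nuclear OXPHOS), -1.45 (mitochondrial genome), 0.61 (immediate early), 0.59 (injury), 0.65 (interferon), -0.70 (early reference). With likely doublets removed, list medians were -0.18 (brush border), 0.98 (immediate early), 0.97 (antigen presentation), -0.78 (early reference). With thinning to 2000 UMIs before the rule, the control share of early cells was 12.6%, the haplodeficient share of early cells was 1.75%, list medians were -0.21 (amino acid transport), -0.21 (organic ion transport), -0.20 (brush border), -0.56 (gluconeogenesis), -1.25 (mitochondrial genome), 0.72 (immediate early), 0.48 (injury), -0.28 (glycolysis), 0.51 (interferon), 0.81 (antigen presentation), -0.53 (early reference) and single genes turned to -0.46 (Sprr2f), -0.58 (Clu). With equal weight for each cell, list medians were -0.50 (amino acid transport), -0.27 (endocytosis), -0.25 (brush border), -0.63 (gluconeogenesis), -0.27 (nuclear OXPHOS), -1.54 (mitochondrial genome), 0.99 (immediate early), -0.053 (ER chaperones), 0.73 (injury), 0.65 (interferon), 0.88 (antigen presentation), -0.74 (early reference). With median-of-ratios scaling, 71 genes were lower and the list median was -0.20 (brush border). With mitochondrial genes left out of the total, 85 genes were lower. With no minimum level, 312 genes were higher, 86 genes were lower and list medians were -0.40 (amino acid transport), -0.42 (organic ion transport), -0.15 (endocytosis), -0.16 (brush border), -0.57 (gluconeogenesis), -0.077 (nuclear OXPHOS), -1.48 (mitochondrial genome), 0.018 (glutathione), 0.78 (immediate early), 0.34 (ER chaperones), 0.11 (glycolysis), 0.39 (interferon), 0.70 (antigen presentation), -0.71 (early reference). With Slc5a2-positive and Slc5a2-negative cells weighted equally, 83 genes were lower and list medians were -0.47 (endocytosis), -0.44 (transcription factors), -0.66 (fatty acid oxidation), -1.88 (mitochondrial genome), -0.049 (glutathione), 0.54 (immediate early), 0.27 (ER chaperones), 0.71 (injury), 0.78 (antigen presentation), -1.28 (early reference). At a mitochondrial share of 5% to 15%, 11 genes were higher, 16 genes were lower, list medians were -0.13 (amino acid transport), -0.12 (organic ion transport), 0.023 (endocytosis), 0.020 (brush border), -0.072 (gluconeogenesis), -0.15 (amino acid metabolism), -0.084 (fatty acid oxidation), -0.13 (TCA cycle), 0.19 (nuclear OXPHOS), -0.26 (mitochondrial genome), -0.049 (immediate early), 0.26 (heat shock), -0.31 (injury), 0.065 (glycolysis), 0.32 (interferon), 0.49 (antigen presentation), -0.19 (early reference) and single genes turned to -0.0048 (Cdkn1a), -0.66 (Nupr1), -0.41 (Clu), -0.11 (Car15), 0.21 (mt-Nd6), -0.051 (Klf6), -0.81 (Klf2), -0.33 (Dcdc2a), -0.97 (Lcn2), -0.41 (Anxa2), -0.12 (Tmsb10), -0.41 (S100a6). Without cells holding UMIs of later segments, list medians were -0.21 (brush border), -1.63 (mitochondrial genome), 1.05 (immediate early), 1.22 (injury). Without the 2% of cells richest in the gene, Car15 turned to -0.095, and Sprr2f stood at 0.00 only because no UMI of it was left. A lower limit of 1000 UMIs, a pseudocount of 1 CPM and subtraction of free RNA changed none of the shares, counts or list medians in this sense. No paired analysis was possible because each group is 1 library, and for the same reason no library could be left out. The haplodeficient values rest on 239 cells, and on 43 of them above 15% mitochondrial share, and animals, libraries and genotype cannot be told apart.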
